A study of Drosophila melanogaster with 2 samples.

Results

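Between many pairs of fly genes that are transcribed away from each other lies only a short stretch of DNA, and 274 of the 3793 reproducible binding summits of the zinc finger protein Tiptop (Tio) lay in such gaps. The summits were chosen by position alone, and their signal played no part. A summit counted if it lay between the 5′ ends of 2 protein-coding genes on opposite strands that point away from each other, with those ends at most 1 kb apart, on the 6 main chromosome arms. Binding was measured by chromatin immunoprecipitation and sequencing (ChIP-seq) with an anti-GFP antibody in 2 biological replicates, which form 1 group. The embryos came from the Drosophila melanogaster strain tio-GFP, whose transgene encodes Tio with GFP at its C terminus. No treatment is given in the labels, and the embryos were of both sexes and 4 to 24 h old. They were used whole, so that a signal is an average over all cell types. Both replicates carry the transgene, and no library without the tagged protein was used here, so binding is described without such a comparison. The sequence that drives the fusion is not given in the labels.

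Head-to-head gene pairs are common in the compact fly genome, and the 2 genes share 1 stretch of promoter DNA that is typically poor in nucleosomes. Many such genes are broadly expressed. The site TATCGATA, which the promoter factor DREF and the boundary protein BEAF-32 can bind, is a known feature of their promoters. Tio is the paralog of Teashirt, and both act as transcriptional repressors in fly development.

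The 4 strongest summits in gaps of at most 299 bp are shown with their whole gap, so that the sequence at the summit can be read between both genes. Each runs from the 5′ end of the minus-strand gene to that of the plus-strand gene, on the plus strand of build dm6 (RefSeq genome sequence of the same assembly), with the 21 bp centred on the summit in capitals.
Art3 / mRpS10 (chr3R:15229408-15229665): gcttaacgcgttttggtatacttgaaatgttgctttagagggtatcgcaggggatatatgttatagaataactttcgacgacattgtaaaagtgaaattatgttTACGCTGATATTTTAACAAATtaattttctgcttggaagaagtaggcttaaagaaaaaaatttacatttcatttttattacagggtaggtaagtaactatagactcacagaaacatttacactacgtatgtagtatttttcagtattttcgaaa
Tcs5 / CHMP2B (chr3L:5139395-5139619): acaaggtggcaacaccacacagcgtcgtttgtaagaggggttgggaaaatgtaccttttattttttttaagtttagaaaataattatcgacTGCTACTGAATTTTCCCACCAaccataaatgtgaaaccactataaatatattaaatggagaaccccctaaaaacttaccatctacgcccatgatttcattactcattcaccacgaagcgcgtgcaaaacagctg
Lon / PIG-F (chr3L:19612199-19612455): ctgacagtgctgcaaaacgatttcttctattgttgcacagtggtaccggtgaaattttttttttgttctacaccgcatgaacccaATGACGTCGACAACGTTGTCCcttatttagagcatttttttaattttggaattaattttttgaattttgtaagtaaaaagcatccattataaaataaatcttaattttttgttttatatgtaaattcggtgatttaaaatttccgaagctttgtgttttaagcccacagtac
Bdp1 / CG6565 (chr2L:13373890-13374019): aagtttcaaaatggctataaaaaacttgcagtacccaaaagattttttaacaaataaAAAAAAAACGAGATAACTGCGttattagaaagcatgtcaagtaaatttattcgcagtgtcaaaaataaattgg

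These gaps held pooled signals of 1376, 1299, 1066 and 949, in the order shown. The site TATCGATA was present in none of these 4 gaps, and the homeodomain core TAATTA only in that of Tcs5 and CHMP2B. Their G+C content ran from 26.9% at Bdp1 and CG6565 to 38.2% at Tcs5 and CHMP2B. The 2 strongest summits with TATCGATA within 100 bp are shown next, those of Atat and Shc and of fws and Lamtor3, as the part of that window that lies inside the gap, with the site in capitals. Their pooled signals were 769 and 476. The third line is a gap with no region in any of the replicate and pooled lists, that of the thioredoxin genes TrxT and dhd, which are known for their expression in the male and the female germ line. It was picked among gaps of 100 to 299 bp for its number of copies of the site, which are 2 and overlap.
Atat / Shc (chr3L:9426778-9426978): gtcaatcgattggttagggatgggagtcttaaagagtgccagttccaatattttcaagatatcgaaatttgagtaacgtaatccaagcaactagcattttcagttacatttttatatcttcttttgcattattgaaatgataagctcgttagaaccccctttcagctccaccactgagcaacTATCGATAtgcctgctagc
fws / Lamtor3 (chr2L:17481045-17481231): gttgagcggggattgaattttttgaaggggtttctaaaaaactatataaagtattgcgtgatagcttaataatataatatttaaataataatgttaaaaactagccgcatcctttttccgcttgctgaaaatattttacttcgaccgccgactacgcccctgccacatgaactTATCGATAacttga
TrxT / dhd (chrX:5311888-5312171): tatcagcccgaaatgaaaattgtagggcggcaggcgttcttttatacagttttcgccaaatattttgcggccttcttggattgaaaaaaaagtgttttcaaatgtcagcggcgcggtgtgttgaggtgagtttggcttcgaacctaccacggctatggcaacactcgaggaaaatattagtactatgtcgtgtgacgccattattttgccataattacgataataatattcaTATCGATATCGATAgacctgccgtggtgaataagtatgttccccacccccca

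The annotation held 2435 head-to-head pairs with gaps of at most 1 kb, made of 4648 of the 13945 protein-coding genes (33.3%). A summit lay in the gap of 281 of them, or 11.5%, and these pairs comprised 525 genes. There are more such pairs than summits because gaps can overlap. Of the 274 summits, 256 lay in 1 gap, 16 in 2 and 1 in 4. One more lay in 14 overlapping gaps at mod(mdg4), a chromatin protein gene whose alternative pieces are annotated as separate genes on both strands, and it had a signal of 557, with 307 in replicate 1 and 243 in replicate 2. Only 5 of the 274 summits had the 5′ end of another annotated gene within the gap they were assigned to.

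Taken as lists of 3793 highest-signal regions, the replicates gave similar pictures. Replicate 1 had 319 summits in head-to-head gaps (8.41% of its list) and replicate 2 had 361 (9.52%). The gaps so marked were 13.1% of all pairs in replicate 1 and 15.1% in replicate 2, both above the 11.5% of the list that required reproducibility. Peaks are not replicates and there is 1 group, so the differences between classes of peaks and of gaps that follow were not tested. Values from each replicate are given for the shares of gaps by orientation, by width in classes and by G+C content, for the densities, and for the signal medians of peak classes and of positions in the gap. Most other comparisons rest on the pooled and IDR lists.

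Head-to-head gaps held summits more often than other gaps between neighbouring genes. Among adjacent genes that do not overlap and lie at most 1 kb apart, 241 of 2173 head-to-head gaps held a summit (11.1%, and 12.9% and 15.0% with replicates 1 and 2 alone). Of 3272 head-to-tail gaps, where 1 gene ends before the next begins, 111 held one (3.39%, and 3.45% and 4.31%). Gaps between 2 gene ends, tail to tail, held one in 6 of 1425 cases (0.421%, and 0.211% and 0.491%). The order was the same in both replicates. Median gap widths were 297 bp head to head, 291 bp head to tail and 102 bp tail to tail, so only the first and second are of like width. Per 100 kb of gap this was 35.1, 10.2 and 2.24 summits, with median signals of 200, 162 and 107.

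The width of the gap went with the presence of a summit. Of the 693 pairs with 5′ ends at most 200 bp apart, 13 held a summit (1.88%). Of the 879 pairs with gaps of 201 to 400 bp, 150 did (17.1%). The share was highest at 301 to 400 bp, with 76 of 383 pairs (19.8%, and 21.9% and 23.5% with replicates 1 and 2 alone), and lower again at 601 to 1000 bp, with 54 of 429 (12.6%, and 13.1% and 13.8%). The median gap was 365 bp in pairs with a summit and 295 bp in pairs without. A narrow gap offers less sequence for a summit to fall in, and this was not corrected for in these shares. Overlapping gaps also count separately in them. At 301 to 400 bp, 67 summits were assigned to gaps of the class, against 76 pairs with a summit. The summit that lay in 14 gaps at mod(mdg4) was assigned to a gap of 319 bp. How far such recounts raised the share was not tested.

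**Figure D1:**
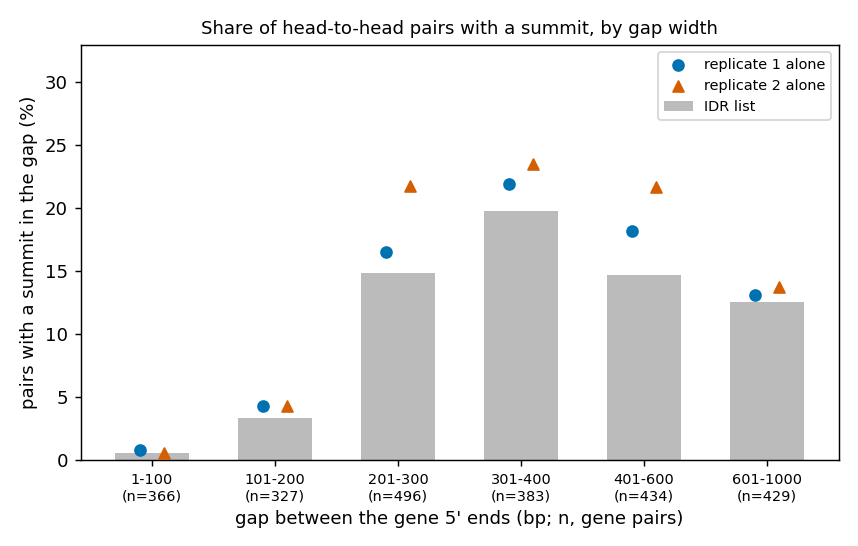
Percentage of head-to-head gene pairs with a summit in the gap, by the distance between the gene 5′ ends in bp. Overlapping gaps around the same summit, such as the 14 at mod(mdg4), count separately. Bars give the IDR list and points each replicate's 3793 highest-signal regions, and all 3 are under 1% at gaps of at most 100 bp and at 19.8% to 23.5% at 301 to 400 bp.

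Summits were also counted per 100 kb of sequence at a given distance upstream of the nearest protein-coding 5′ end. At 101 to 150 bp, head-to-head gaps held 67.2 summits per 100 kb (94 summits), against 17.0 (85 summits) in all other upstream sequence. That sequence includes stretches upstream of paired genes but outside the gap, where the gene opposite can lie, so the positions are not fully alike. With replicate 1 alone these densities were 65.0 and 18.4, and with replicate 2 alone 77.2 and 19.4. In each of the other 5 distance classes up to 500 bp the head-to-head density was higher as well, in the IDR list and in each replicate. The smallest ratio of these densities in the IDR list was at 201 to 300 bp, with 25.5 against 13.5.

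**Figure D2:**
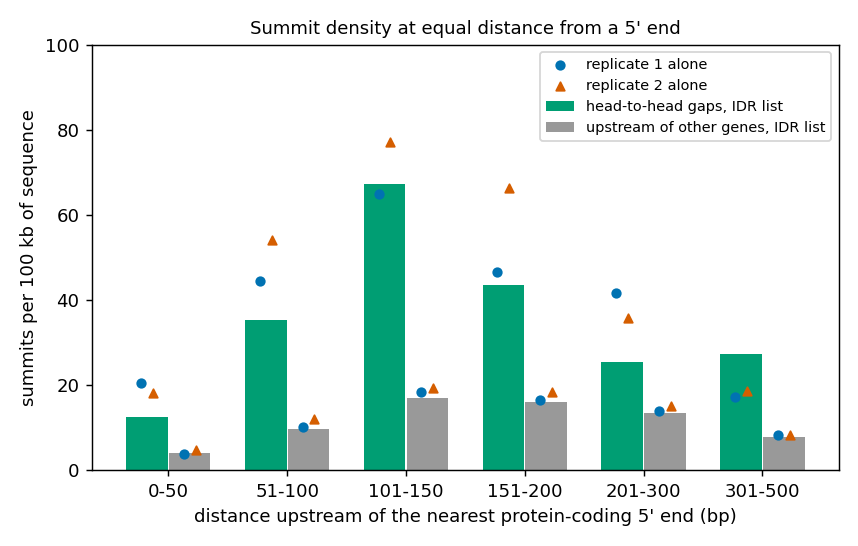
Summits per 100 kb of sequence (vertical axis) by distance in bp upstream of the nearest protein-coding 5′ end, within head-to-head gaps (green bars) and in all other upstream sequence (grey bars). The grey bars include sequence upstream of paired genes but outside the gap. Bars give the IDR list and points each replicate alone. The head-to-head bar peaks at 67.2 in the class of 101 to 150 bp, where the grey bar is at 17.0.

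Summits sat towards the middle of their gap. In 188 of 274 cases (68.6%) the summit lay in the central part of the gap, from 0.25 to 0.75 of the way between the ends, and 86 lay in the outer parts, which together cover the same length. The median distance was 120 bp to the nearer gene 5′ end and 256 bp to the farther one, and 54.2 bp to the midpoint. The position was most central at 201 to 300 bp, where 79.7% of 69 summits were in the central part, and the share was 53.3% of 60 in the wide gaps of 601 to 1000 bp. In the 11 gaps of 101 to 200 bp with a summit, 3 summits were in the central part (27.3%). Summits nearer to the plus-strand gene (146) and nearer to the minus-strand gene (128) were of similar number, and 27 lay within 50 bp of an end.

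**Figure D3:**
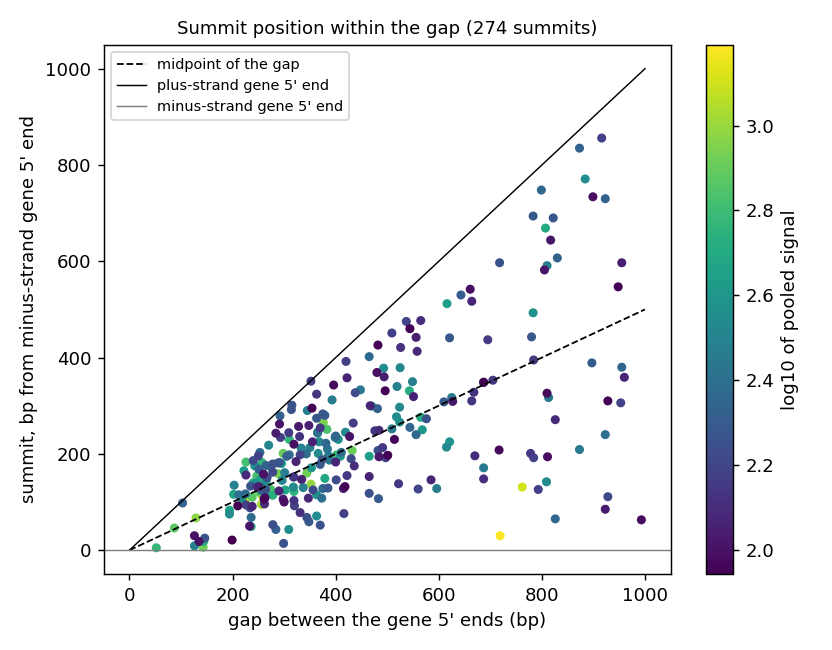
Position of each of the 274 summits, as bp from the 5′ end of the minus-strand gene (vertical axis), against the gap width in bp, coloured by log10 of the pooled signal. The dashed line marks the midpoint of the gap and the solid line the 5′ end of the plus-strand gene. In gaps of 201 to 600 bp most summits lie near the dashed line, and in wider gaps they scatter more.

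A second summit was found in 25 gaps, and 3 summits in none. The gaps of CG33199 with Tom7 and of CG8229 with Tom7 are both counted, although they hold the same summits. These gaps were 284 to 955 bp wide, and the summits in them were a median of 203 bp apart, with a smallest distance of 199 bp, so that most lay close to the smallest spacing. Whether such neighbours mark separate binding was not tested. The strongest case was CG5611 and Mtl, with summits of signal 973 and 150 that lay 214 bp apart. The next were beta4GalNAcTB, a glycosyltransferase gene, with Cpsf100, which encodes an mRNA 3′-end processing factor (494 and 127), and CG10584 with Polr3E, which encodes an RNA polymerase III subunit (437 and 238). Wider spacing was seen at Ac78C, an adenylyl cyclase gene, with chb, the gene of a microtubule-binding CLASP protein (645 bp apart, signals 107 and 211) and at l(1)G0320 and the ribosomal protein gene RpS28b (626 bp, signals 284 and 218).

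Signal at head-to-head summits was high within the list. The authors' signal value has no stated scale and serves only to rank peaks within a list. Its median was 197 at the 274 head-to-head summits (range 87.8 to 1550), 170 at the 722 other summits within 1 kb upstream of a protein-coding gene and 137 at the 2797 elsewhere. The 722, called summits upstream of other genes here, can include those upstream of a paired gene but outside its gap. In the list of replicate 1 the medians were 107, 94.2 and 75.3, and in that of replicate 2 they were 95.6, 85.0 and 70.2, in the same order. Of the 274 summits, 120 (43.8%) were among the 1000 strongest peaks, which are 26.4% of the list, and 38 (13.9%) among the 1000 weakest. Of summits upstream of other genes, 35.7% were among the 1000 strongest, and of those elsewhere 22.2%. In the replicate lists the share of head-to-head summits among the 1000 strongest was 42.6% and 41.6%. Head-to-head summits, 274 of the 3793 peaks, made up 20 of the 100 strongest. Summits upstream of other genes made up 32 and those elsewhere 48.

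Within the head-to-head summits, signal was higher in narrow gaps. Median signal was 234 at 201 to 300 bp, 206 at 301 to 400 bp 163 at 401 to 600 bp and 173 at 601 to 1000 bp. Across the 274 summits, Spearman's rho between signal and gap width was -0.25, and between signal and G+C content -0.06. These points share the same libraries, and the values are descriptions. Summits in the central part of their gap had a median signal of 223 (119 and 106 in replicates 1 and 2), and those in the outer parts of 179 (92.4 and 87.5).

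The replicates ranked these summits much alike. Of the 274, 252 had a summit within 100 bp in both replicate lists, 13 had none in replicate 1 and 9 none in replicate 2. Over all peaks 3504 of 3793 were so matched, a like share. Over the 252, Spearman's rho between the replicates was 0.91, against 0.86 upstream of other genes (675 summits) and 0.74 elsewhere (2577). The head-to-head summits are stronger on the whole, and the part of signal strength in this order was not tested. On the log2 scale, replicate 1 exceeded replicate 2 by a median of 0.10 (SD 0.38 across summits), and it was higher at 154 of the 252 (61.1%), against 67.6% of all matched peaks. Over all matched peaks the median was 0.16. Read depth is unknown, so a higher value in 1 replicate is not read as more binding. Signals over 2-fold apart were seen at 4 summits (1.59%), against 4.94% of all matched peaks.

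The summits at which the replicates differed most involve genes of several kinds. Pop2, a gene for a deadenylase subunit, and CG6928 had signals of 97.4 in replicate 1 and 28.3 in replicate 2 (a difference of 1.78 on the log2 scale). CG13038 and CG13058 had 65.5 and 24.1 (1.45), and CG12321 with the Mediator subunit gene MED17 had 197 and 84.1 (1.23). In the other direction, TAF1B, whose product acts in RNA polymerase I transcription, and Invadolysin had 35.9 and 93.3 (-1.38). One of the summits between pyx, a cation channel gene, and CG33229 had 88.3 and 176, while its neighbour 201 bp away had 197 in replicate 1 and no match in replicate 2. CIAPIN1 with Su(H), the DNA-binding effector of Notch signalling, had 34.1 and 64.8 (-0.92). The weakest was the second summit between CG13185 and cuff, a gene of the germ-line small RNA pathway, with a pooled signal of 87.8 (38.2 and 47.6). Above it came the second summit between Sin3A, a corepressor gene, and Amph (88.1, with 54.7 in replicate 1 and no match in replicate 2) and that of hts and CalpA (88.2, with 35.5 and 52.2). They lie just above 87.5, the lowest signal of the whole list, where the authors' list ends.

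The 20 strongest head-to-head summits had pooled signals of 657 to 1550, and all 20 ranked among the first 127 regions of both replicate lists. Among them 16 lay in the central part of their gap and 14 in gaps of 201 to 400 bp, and 14 were higher in replicate 1. Their log2 ratios ran from -0.16 to 0.42. They are described by the known roles of the genes beside them, and no share of a role among them was tested.

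Genes of translation were beside several of the strongest summits. The strongest summit (X, 2703882) lay between Ugalt, which encodes a UDP-galactose transporter, and eIF2Bbeta, a subunit of the exchange factor for eIF2, with a pooled signal of 1550, 828 in replicate 1 and 727 in replicate 2. It was 30 bp from the 5′ end of Ugalt and 689 bp from that of eIF2Bbeta, so the strongest summit lay outside the central part of its gap. The summit between eIF4EHP, a gene for a cap-binding translational repressor, and CG18428 (3R, 24109225) had 884, with 461 and 427. Tcs5, whose product takes part in tRNA modification, shares its gap with CHMP2B of the ESCRT-III membrane complex (3L, 5139496), where the signal was 1299, with 676 and 622.

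Genes with mitochondrial roles were beside others of the 20. The gap of Art3, an arginine methyltransferase gene, and mRpS10, which encodes a mitochondrial ribosomal protein (3R, 15229522), had a signal of 1376, with 704 in replicate 1 and 676 in replicate 2, and its summit was 114 bp and 143 bp from the ends. A second mitochondrial ribosomal protein gene, mRpL41, lay opposite CG8079 (2R, 15217748) with 1268, and 687 and 587, in a gap of 762 bp that also held the 5′ end of another gene. Lon, which encodes a protease of the mitochondrial matrix, and PIG-F, of GPI anchor synthesis (3L, 19612294), had 1066, with 550 and 526. Coq4, of ubiquinone synthesis, with CG32176 had 670, with 339 and 334. Replicate 1 had the higher value at each of these pairs. In the order named, the log2 ratios of replicate 1 to replicate 2 were 0.06, 0.23, 0.07 and 0.02. The median over all matched peaks was 0.16, so only mRpL41 lay above it.

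Genes of membrane traffic, the cytoskeleton and signalling made a further group. Fur1, a furin protease gene, and Vps33B, of vesicle tethering, had 807, with 381 and 425, and the summit lay 207 bp and 225 bp from their ends. Reps and l(2)gd1, an endosomal regulator of Notch, had 797 (390 and 416). CG5611 and Mtl had 973 (509 and 460), and Mkk4, the gene of a MAP kinase kinase of JNK signalling, with SLIRP2 had 865 (449 and 418). Cytoskeletal genes were represented by Atat, an α-tubulin acetyltransferase gene opposite the adaptor gene Shc (769, with 428 and 336), by Mnat9 with CG1792 (828, with 415 and 418) and by gammaTub23C with the DNA repair gene Rrp1 (674, with 381 and 285). Replicate 2 was the higher one at Fur1, at Reps and, slightly, at Mnat9.

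The other pairs among the 20 hold genes of nuclear functions or without a name. Bdp1, which encodes a subunit of the RNA polymerase III factor TFIIIB, and CG6565 are 129 bp apart and had 949, with 534 in replicate 1 and 421 in replicate 2. Irbp18 and APP-BP1, of the Nedd8 pathway, had 657 (350 and 296). CG1602 and PIG-G had 820 (454 and 369) with the lowest G+C content of the 20, at 18.9% in the 201 bp around the summit. The rest were CG10747 with Pyroxd1 (754), CG13390 with CG17294 (734) and CG13018 with CG13016 (664). Gap width at the strongest summits thus ranged from 87 bp at CG10747 and Pyroxd1 to 762 bp at mRpL41. The narrowest gap with a summit, 52 bp, was that of CG32022 and CG6511 (signal 589, with 322 and 267), and the widest, 993 bp, that of GPHR, a Golgi pH regulator gene, and CG42391 (95.8, with 39.1 and 55.2).

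**Figure D4:**
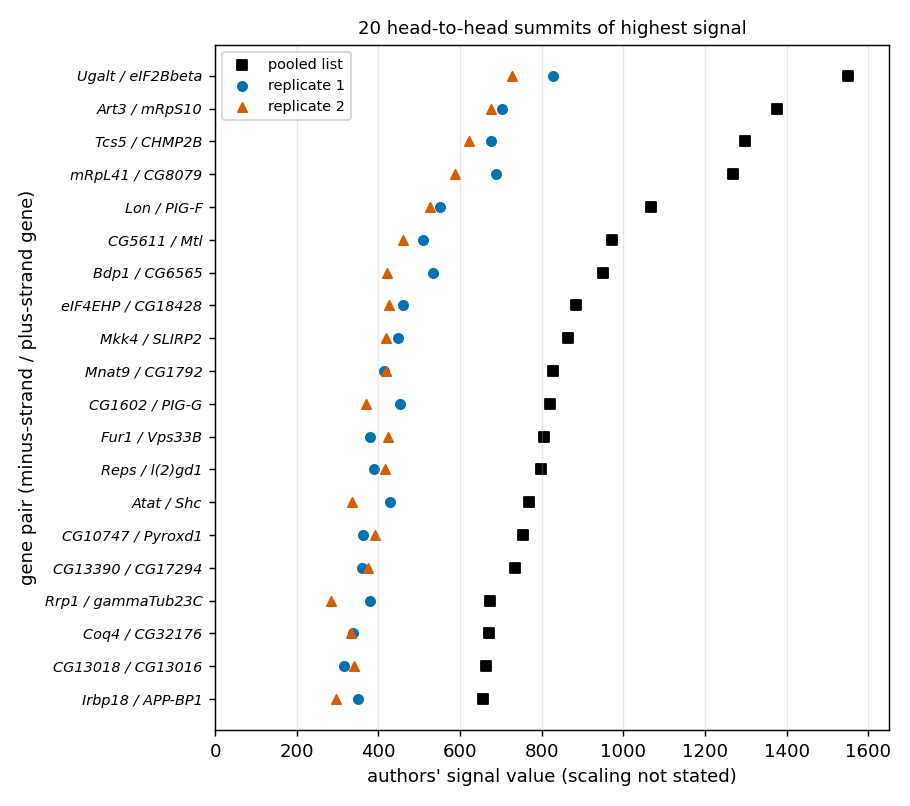
Signal of the 20 strongest head-to-head summits in the pooled list (squares), replicate 1 (circles) and replicate 2 (triangles), by gene pair. Pooled values run from 657 to 1550 and are on another scale than the replicate values, which keep close together at each pair.

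Gene classes were counted by the share of their head-to-head gaps with a summit, beside the 11.5% of all pairs. Of 18 lists, 14 had a summit in at least 1 gap. Genes of cytosolic ribosomal proteins had one in 12 of 57 gaps (21.1%), with the highest signals at RpS27 opposite the nucleoporin gene Nup37 (544, with 295 and 245) and at RpS20 opposite CG17271 (313, with 148 and 161). Mitochondrial ribosomal protein genes had one in 13 of 59 (22.0%), with mRpS2 opposite Mon1 (419, with 188 and 231) next after mRpS10 and mRpL41. These 2 lists were already known from earlier results to hold many peaks. RNA polymerase subunit genes had a summit in 4 of 20 gaps, with Polr3E (437) and Polr2B, the gene of a large RNA polymerase II subunit, opposite 140up (388, with 203 and 187). Aminoacyl-tRNA synthetase genes had one in 4 of 24, highest at IleRS opposite Hem (456, with 264 and 196). These 4 gaps rest on 3 summits, because gaps can overlap.

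Other housekeeping lists were near or below the share of all pairs. They were translation factors (3 of 27 gaps), Mediator and TFIID (3 of 29, highest at MED17 with 364), respiratory chain and ATP synthase (4 of 41, ND-SGDH opposite RhoGAP68F with 211), DNA replication (2 of 24, RnrS opposite CG34231 with 340), and splicing factors (2 of 27, Sf3b6 opposite Tnpo with 292). Nucleoporins had 2 of 18, autophagy genes 2 of 16 (Xe7 and Atg17 with 493), and Rab GTPases 1 of 17 (Rab40 opposite CG42258 with 153). Insulator, interband and core promoter factors had 1 of 9, which was M1BP, the gene of a promoter-binding factor, opposite CG8202. Its summit had a signal of 288 and 172 in replicate 1, and none within 100 bp in replicate 2. Proteasome genes had a summit in 0 of 23 gaps and chaperone genes in 0 of 15. Histone genes had 0 of 45, where near-identical copies make read placement uncertain. Cuticle protein genes had 0 of 9, and chemosensory genes 1 of 27, at Gr32a opposite Idua (157). With so few gaps a list, these shares are loose, and a list at 0 is not shown to differ from the rest.

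The pairs without a summit were mostly empty in every list. Of these 2154 pairs, 1737 (80.6%) held no region of the pooled list or of either replicate list. Each of these lists runs to about 30000 regions, and no share for other sequence of like width was computed. A pooled region below the IDR list lay in 154 of the gaps (7.15%), with a median signal of 53.2. The highest was at Mcr, of the septate junction, and Bsg, which encodes basigin (86.4, with 47.3 and 39.3). Just behind were ubl with koi, the gene of a nuclear envelope SUN protein (86.1, with 51.8 in replicate 2 and no region in replicate 1), and CG9003 with CG34228 (85.6, with 48.0 and 34.5). These values lie just under the lowest signal of the IDR list, 87.5.

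Head-to-head summits lay in sequence somewhat richer in A and T than other summits, by less than 1 SD. G+C content in the 201 bp around the summit was 31.3% ± 5.22 (SD across 274 summits), against 33.9% ± 6.69 upstream of other genes and 34.0% ± 5.82 elsewhere. At 500 bp to either side it was 47.7%, which is mostly within the genes, against 43.5% and 42.4% for the flanks of the other classes. The difference between summit and flanks at this distance was therefore larger at head-to-head summits. At 200 bp to either side, in windows of 25 bp, it was not, with 38.2% and 39.7% at head-to-head summits and 43.0% and 43.4% at summits elsewhere, against 29.5% and 31.0% at the centre. Centred on the midpoint of the gap, pairs with a summit had 29.7% ± 6.45 and pairs without one 34.2% ± 8.28. Overlapping gaps around the same summit, such as the 14 at mod(mdg4), count separately in these and the following midpoint values.

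The contrast at the midpoints was smaller within classes of gaps wider than 200 bp. Within gaps of 301 to 400 bp the midpoints had 26.7% ± 5.22 (SD across pairs) with a summit and 29.3% ± 6.79 without, and within 201 to 300 bp 30.7% ± 4.68 and 32.5% ± 6.83. At 601 to 1000 bp both were at 34.5%. Over all pairs, a summit was present in 18.2% of 555 gaps with a midpoint G+C of 25 to 30%, and in 2.72% of 552 gaps at 40% or more. Among gaps of 201 to 400 bp alone, the share was 20.6% of 277 and 1.28% of 78. The classes between and below had 19.8% under 25% G+C, 15.8% at 30 to 35% and 17.9% at 35 to 40%. At this width the low share was thus confined to the highest class. Among gaps of 401 to 1000 bp the share was 17.4% of 242 at 25 to 30% and 9.23% of 130 at 40% or more. The gaps of this width hold 12 of the 15 gaps at 40% or more with a summit. The shares over all pairs were 20.5% and 3.08% with replicate 1 alone, and 25.2% and 3.26% with replicate 2 alone. Read coverage and the control library were not used here, and the part of base composition in library preparation was not tested.

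**Figure D5:**
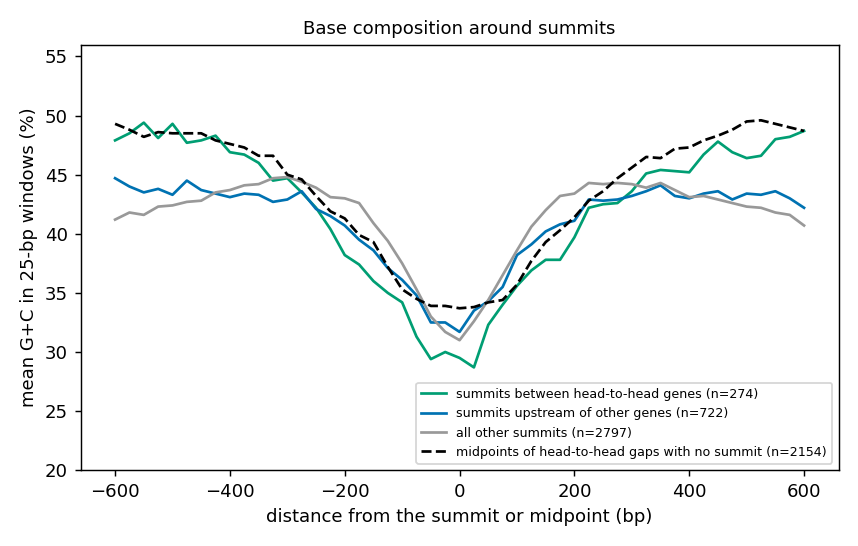
Mean G+C content in windows of 25 bp (vertical axis) by distance in bp from the summit, for head-to-head summits (green), other summits within 1 kb upstream of a protein-coding gene (blue) and all other summits (grey), and from the gap midpoint for pairs without a summit (dashed). All 4 curves dip at the centre, where the head-to-head curve reaches 29.5% and the dashed curve 33.7%.

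Of 16 sequence motifs searched on both strands within 100 bp of the summit, TATCGATA had the largest ratio of its share at head-to-head summits to its share at all peaks. It was present at 20 of 274 head-to-head summits (7.30%), at 2.77% of summits upstream of other genes and at 0.572% elsewhere, and at 1.48% of all peaks. Its core ATCGAT, which is contained in it, was at 17.2%, 7.62% and 4.76%. Within 50 bp of the summit the site was at 2.19% of head-to-head summits. How the site was distributed between gaps with and without a summit depended on the sequence searched. The 201 bp at the midpoint of the gap held TATCGATA in 9.05% of pairs without a summit and in 5.69% of pairs with one. Taking whole gaps the order was the other way, and a summit was present in 61 of 441 gaps with the site (13.8%) and in 220 of 1994 without it (11.0%). Within classes of gap width the order varied. At 201 to 300 bp the site was in 18.9% of gaps with a summit and 16.1% without. At 301 to 400 bp it was in 21.1% and 22.5%, at 401 to 600 bp in 29.7% and 20.5%, and at 601 to 1000 bp in 22.2% and 17.6%. In gaps of at most 100 bp it was in 0% and 16.2%, and at 101 to 200 bp in 0% and 13.3%. The part of gap width in these shares was not tested. The 20 summits with the site had a median signal of 179 and the other 254 of 197. The promoter motif GGTCACAC, part of the M1BP site, was likewise at 2.55% of head-to-head summits and 0.393% of summits elsewhere, but at 5.99% of midpoints without a summit and 0.712% of those with one.

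The motifs TAATTA and TATAAA had higher shares at the midpoints of gaps with a summit. The homeodomain core TAATTA was within 100 bp of 77 head-to-head summits (28.1%), against 19.1% of all peaks, and at 35.9% of midpoints of pairs with a summit and 20.8% of pairs without. The midpoint shares count overlapping gaps separately, and TAATTA was within 100 bp of the summit that lay in 14 gaps at mod(mdg4). In whole gaps of 201 to 300 bp it was present in 43.2% with a summit and 23.9% without, and at 601 to 1000 bp in 57.4% and 54.1%. In the gaps of 101 to 200 bp it was in none of the 11 with a summit and in 8.54% of the others. TATAAA was at 51.8% of head-to-head summits and 39.6% of all peaks, and at 50.9% and 39.2% of these midpoints. G+C content differs between the same sets, and its part in these shares was not tested. Summits with TAATTA had a median signal of 196 and those without of 198. The E-box CAGCTG was at 12.0% against 6.88% of all peaks, and at 7.83% of midpoints with a summit against 12.5% of those without. The motif CAGTGC, the leading 6-mer of earlier results, was at 12.8% against 16.4% of all peaks. In windows 500 bp to either side of head-to-head summits it was at 15.1%, above the share at the summits. Upstream of other genes it was at 11.8% of summits and 11.2% of such flanks, and elsewhere at 17.9% and 8.69%. GAGAGAG, the site of the GAGA factor Trl, was at 1.46% against 3.16% of all peaks, and CACACACA at 1.09% against 2.37%. The remaining 7 motifs were an initiator (TCAGTT), another E-box (CATATG), a Forkhead site (TGTTTAC), an Exd-Hox site (TGATNNAT), a GATA site (AGATAAG), the Zelda site (CAGGTAG) and the pause button (CGGACG). Their shares at head-to-head summits and at all peaks differed by at most 2.52 percentage points. The Forkhead site was at 8.03% of head-to-head summits and 5.69% of all peaks. At the midpoints of gaps it was in 11.7% with a summit and 6.96% without. The Zelda site was at 0 of the 274 summits and at 0.765% of all peaks.

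By chromosome arm, 3L and 3R had summits in the largest shares of their head-to-head pairs among the 5 large arms, with 14.7% of 477 and 14.2% of 634. The shares were 11.1% of 467 on 2L, 8.06% of 484 on 2R and 7.67% of 365 on X. The 14 overlapping gaps at mod(mdg4) are on 3R. Arm 4 had 2 of 8. Head-to-head summits were 3.72% of the peaks on X and 6.55% to 9.32% of those on the other large arms, and their median signal of 180 to 205 varied little between arms.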

How the data were processed

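The authors deposited peak lists on build dm6, used here, and dm3, not analysed here because its coordinates were not converted. Per the notes deposited with the samples, replicate lists come from 1 replicate and a control, the pooled list from both, and the IDR list from all of these by irreproducible discovery rate, which keeps peaks whose ranks are reproducible. The sources used here do not name the aligner, peak caller or IDR threshold. The deposited signal value has an unstated scale, the deposited -log10 q was not used in any result, and read depth is unknown. The deposited summit offset was used as given. Per the labels, chromatin was sonicated to 200 to 800 bp.

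Gene 5′ ends came from the Ensembl annotation BDGP6.54, release 115, leaving out transposable elements, and sequence from the RefSeq genome of the same assembly. A summit in several gaps was assigned to the narrowest. Replicate summits were matched within 100 bp. Coordinates are 1-based. Python 3.11.15, NumPy 2.4.6 and pandas 2.3.3 were used, and the membership rule was tested on simulated data. No test was run, since peaks are not replicates. Members and lists were chosen with earlier results of these data known. Named were the 20 strongest summits, the 3 weakest, the 3 with the highest and lowest replicate ratio, the narrowest and widest gaps, the 3 pairs with the most summits and the 3 strongest without one, and the strongest member of each list. Ac78C and chb, l(1)G0320 and RpS28b, mod(mdg4), RpS20, mRpS2 and Polr2B were named after their values were seen. Alternatives covered peak strength, each replicate alone, gap limit, transcript starts, overlap, matching distance and windows.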

Additional observations from a re-analysis of the deposited data

How the results depend on the processing

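Of 69 recomputed values of 8 results, 48 stayed within 1 SD between the replicate lists (for counts, within 1.5 times, and for the replicate ratio, within its SD across summits), 21 moved further and 0 changed direction. A change of direction could be scored only for the signal ratio and the replicate ratio, since the other results have no direction. The replicate ratio of 0.10 was judged against an SD of 0.384, so only a large shift could count. Taking repeated intervals once left all 8 results unchanged as printed. The SD between the replicate lists comes from the same 2 lists that were also scored. The 48 therefore include values that could hardly have moved. The number of summits was 187 to 361, against 274 in the main setting, and all these counts fell within the wide limit of 1.5 times. The share of pairs was 8.38% with the 1896 strongest peaks, 14.0% when the peak interval only had to overlap the gap, and 13.1% to 15.1% with 1 replicate. The median signal was 280 in the 1896 strongest, 208 with ends at most 500 bp apart, and 95.6 to 107 with 1 replicate, on the replicate scale. Its ratio to other summits, 1.39, was 1.24 in the 1896 strongest, 1.45 with ends at most 500 bp apart, 1.43 with transcript starts, and 1.31 to 1.37 with 1 replicate. The median distance to the nearer end was 116 bp in the 1896 strongest, 108 bp and 128 bp with limits of 500 bp and 2 kb, and 115 to 120 bp with 1 replicate. Mean G+C was 31.9% with the limit of 2 kb and 29.3% within 25 bp. TATCGATA was at 9.63% with the limit of 500 bp, 2.19% within 50 bp of the summit and 21.2% in the whole gap. The last 2 searched other lengths than the 201 bp used, and how far length alone moves the share was not tested. Elsewhere the cause was not tested. The replicate ratio has no value with 1 replicate. No paired analysis was possible because there is 1 group. Without read depth, the counting error of a weak signal cannot be given.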
